A study of Mus musculus with 16 samples.

Results

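The 44 collagen genes of the mouse were taken as every protein-coding gene, among 21883 on chromosomes 1 to 19, X and Y of build mm10, whose symbol has the form Col, a type number, the letter a and a chain number. They fall into 11 fibrillar chains, 8 basement membrane chains and 25 others, and they lie on 15 chromosomes. CJ9 mouse embryonic stem cells, arid4b-delta or WT, were differentiated over 5 days towards endoderm or mesoderm. After 8 min of formaldehyde fixation, ChIP-seq was run for the histone marks H3K4me3, H3K27ac and H3K27me3. Each of the 3 marks was measured once in each of 4 kinds of cell, arid4b-delta endoderm, WT endoderm, arid4b-delta mesoderm and WT mesoderm, giving 12 peak lists of 1 library each. The 4 input DNA samples were not analysed here. The altered part of Arid4b and the number of clones are not in the labels.

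Collagens are secreted proteins of 3 chains wound into a triple helix. Fibrillar collagens form the tensile fibrils of connective tissue, type IV collagen forms the sheet-like network of basement membranes, and the remaining types decorate fibrils, form beaded filaments or hexagonal networks, or span the cell membrane. In the early embryo type IV collagen and laminin build the first basement membranes, whereas most fibrillar genes are used later by mesenchymal cells. H3K4me3 marks promoters that are active or ready to be used, H3K27ac marks active promoters and enhancers, and H3K27me3, laid down by Polycomb complexes, marks repressed ones. Promoters of developmental genes in stem cells often carry H3K4me3 and H3K27me3 together, a state called bivalent. Arid4b is a subunit of the Sin3 histone deacetylase complex.

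A promoter was counted as marked when a peak overlapped the 1000 bp on either side of the 5′ end of the gene. For 9 members no strand was at hand (Col1a1, Col2a1, Col5a2, Col4a3, Col9a3, Col12a1, Col14a1, Col22a1 and Col26a1), and a peak at either end was counted. A gene-body peak lay over the gene and more than 1000 bp from both ends. Exons and introns were not looked up. With 1 library in each group there is no replicate check, so every difference is one between 2 libraries and no test was possible. The arid4b-delta list was the longer one for each mark and lineage. For H3K4me3 the lists held 25272 peaks in arid4b-delta endoderm and 22292 in WT endoderm, and 26852 in arid4b-delta mesoderm and 21752 in WT mesoderm. H3K27ac lists held 35884 and 14216 peaks in arid4b-delta and WT endoderm and 22747 and 12496 in arid4b-delta and WT mesoderm. H3K27me3 lists held 16660 and 10326 peaks in arid4b-delta and WT endoderm and 9863 and 6150 in arid4b-delta and WT mesoderm. Each pair was therefore also compared at equal length, with the arid4b-delta list cut to its peaks of highest fold enrichment. The WT lists, being the shorter ones, stayed whole. With this cut, calls in arid4b-delta alone cannot rise and calls in WT alone cannot fall. It also drops long peaks of low fold. It therefore does not measure how much of a difference comes from list length. The fold enrichment printed for a peak is the authors' own, depends on the background of its library and is not compared between libraries. Of the marker genes of the labelled tissues, H3K27ac lay at the promoters of 0 of 6 definitive endoderm genes in arid4b-delta endoderm and 1 of 6 in WT endoderm, and of 0 of 7 mesoderm genes in arid4b-delta mesoderm and 4 of 7 in WT mesoderm. Of 6 pluripotency genes, promoter H3K27ac lay at 4 in arid4b-delta and 5 in WT endoderm, and at 5 in arid4b-delta and 2 in WT mesoderm, where Nanog, Utf1 and Tdgf1 had it in arid4b-delta alone. Promoter H3K4me3 lay at all 6 in arid4b-delta endoderm and arid4b-delta mesoderm, at 5 in WT endoderm and at 3 in WT mesoderm. The part of these differences in the collagen calls was not tested. Arid4b itself kept promoter peaks of H3K4me3 and H3K27ac in every library, which checks no genotype because the altered part is not given.

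The base composition of collagen start sites differs widely, and 6 stretches upstream of the outermost RefSeq start (build GRCm38.p6, which is mm10) show the range. They were picked after the peak calls were known, each to stand for one pattern of marks, with every CpG in capitals and each read 5′ to 3′ on the strand of its gene. Col18a1 (chr10:77166531-77166780, minus strand) carried H3K4me3 and H3K27ac in every library, and Col5a1 (chr2:27886175-27886380, plus strand) is the most G+C-rich of those marked by H3K4me3 in every library. Col1a2 (chr6:4505368-4505617, plus strand) carried H3K4me3 alone. Col6a2 (chr10:76623631-76623880, minus strand) had H3K4me3 calls in arid4b-delta and not in WT in both lineages. Col4a5 (chrX:141475169-141475369, plus strand) had them in arid4b-delta of both lineages and in WT mesoderm, so it differed between genotypes in endoderm only. Col3a1 (chr1:45311288-45311537, plus strand) carried no mark and holds no CpG at all.
Col18a1: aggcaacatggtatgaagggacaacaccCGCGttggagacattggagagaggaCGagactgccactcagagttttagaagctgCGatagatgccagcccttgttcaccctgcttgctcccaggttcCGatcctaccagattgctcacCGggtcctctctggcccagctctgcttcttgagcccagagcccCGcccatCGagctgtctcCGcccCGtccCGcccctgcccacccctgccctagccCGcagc
Col5a1: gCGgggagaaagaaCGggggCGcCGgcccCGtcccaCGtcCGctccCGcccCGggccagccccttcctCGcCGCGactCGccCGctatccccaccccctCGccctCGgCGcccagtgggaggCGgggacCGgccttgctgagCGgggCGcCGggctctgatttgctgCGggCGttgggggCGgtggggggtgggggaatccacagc
Col1a2: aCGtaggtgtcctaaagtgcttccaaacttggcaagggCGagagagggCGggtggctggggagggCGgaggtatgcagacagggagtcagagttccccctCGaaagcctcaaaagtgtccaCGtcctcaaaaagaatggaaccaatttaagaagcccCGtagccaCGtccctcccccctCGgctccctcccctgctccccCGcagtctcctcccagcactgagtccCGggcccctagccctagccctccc
Col6a2: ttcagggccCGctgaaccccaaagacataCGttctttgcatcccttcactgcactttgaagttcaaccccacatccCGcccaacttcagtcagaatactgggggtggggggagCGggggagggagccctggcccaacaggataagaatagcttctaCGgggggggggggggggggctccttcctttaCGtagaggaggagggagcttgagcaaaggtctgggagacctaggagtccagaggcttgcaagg
Col4a5: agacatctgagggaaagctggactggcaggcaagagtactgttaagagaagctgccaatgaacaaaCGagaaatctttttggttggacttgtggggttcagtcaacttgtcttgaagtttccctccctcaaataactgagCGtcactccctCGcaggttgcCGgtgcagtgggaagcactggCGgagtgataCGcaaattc
Col3a1: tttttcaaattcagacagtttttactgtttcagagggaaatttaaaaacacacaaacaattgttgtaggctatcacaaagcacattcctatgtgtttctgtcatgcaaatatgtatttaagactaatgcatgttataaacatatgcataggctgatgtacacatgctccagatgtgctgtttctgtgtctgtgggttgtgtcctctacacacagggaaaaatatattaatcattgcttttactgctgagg
The Col5a1 stretch holds 25 CpGs in 206 bases at 77.7% G+C, the Col18a1 stretch 12 in 250 bases at 62.0%, and the Col3a1 stretch 0 in 250 bases at 35.2%.

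The collagen promoters as a group were poor in H3K4me3, nearly devoid of H3K27ac and rich in H3K27me3. H3K4me3 lay at 19 of 44 collagen promoters in arid4b-delta endoderm and at 9 in WT endoderm, while it lay at 57.7% and 52.5% of all protein-coding genes. In mesoderm it lay at 23 collagen promoters in arid4b-delta and at 17 in WT, beside 58.6% and 55.1% of all genes. H3K27ac lay at 1 collagen promoter in arid4b-delta endoderm and 1 in WT endoderm, with 25.3% and 25.6% of all genes marked. In mesoderm it lay at 2 in arid4b-delta and 1 in WT, with 30.3% and 28.6% of all genes marked. No H3K27ac in any library was seen at 42 of 44 collagen promoters and at 63.9% of all genes. H3K27me3 lay at 19 collagen promoters in arid4b-delta endoderm and at 13 in WT endoderm, against 16.3% and 13.6% of all genes. In mesoderm it lay at 16 in arid4b-delta and at 11 in WT, against 15.4% and 8.76% of all genes. In every library the collagen share was thus below the share of all genes for H3K4me3 and H3K27ac and above it for H3K27me3.

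**Figure D1:**
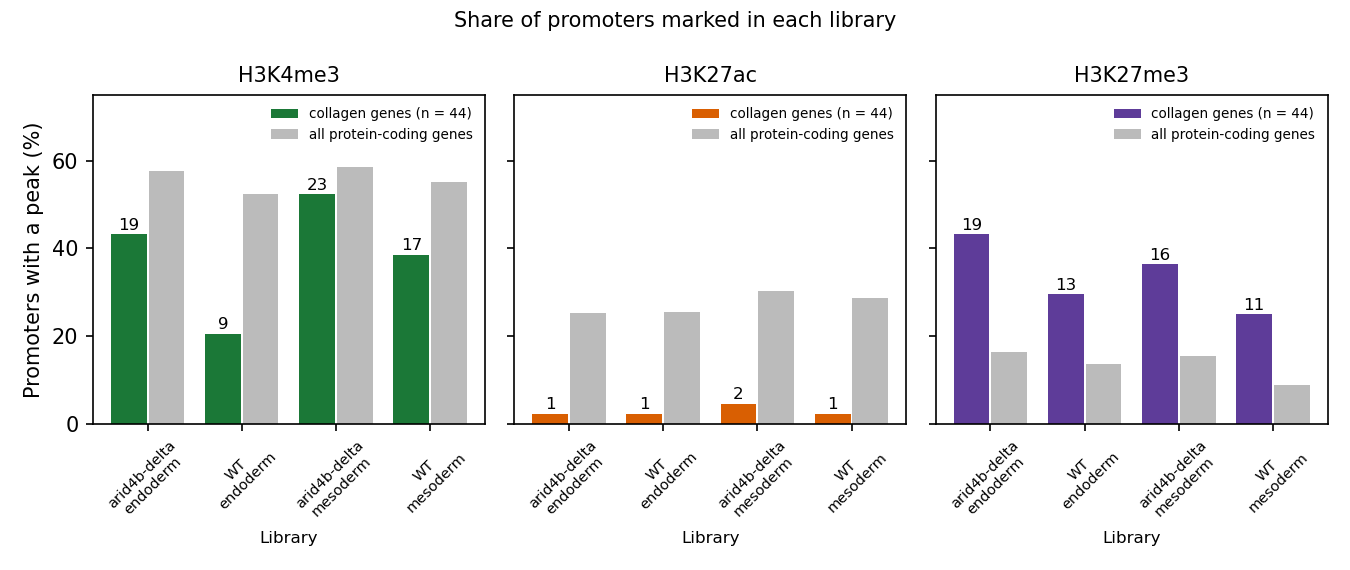
Share of promoters with a peak (%) in each library, by mark. Coloured bars are the 44 collagen genes with the number marked above each bar, and grey bars are all 21883 protein-coding genes. The coloured bar is taller than the grey one only for H3K27me3, and the 4 H3K27ac bars stand for 1, 1, 2 and 1 genes.

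The classes differed in H3K4me3, which lay at 6 of 8 basement membrane promoters in arid4b-delta endoderm and 3 in WT endoderm, and at 6 in arid4b-delta mesoderm and 5 in WT mesoderm. In every library but WT endoderm this was above the share of all genes, although 4 of the 6 genes marked in arid4b-delta are Col4a1 with Col4a2 and Col4a5 with Col4a6, pairs with shared or adjacent starts. Among 11 fibrillar genes it lay at 6 in arid4b-delta and 5 in WT in either lineage, and among 25 others at 7 in arid4b-delta and 1 in WT endoderm and at 11 in arid4b-delta and 7 in WT mesoderm. H3K27me3 lay at 5 basement membrane, 4 fibrillar and 10 other promoters in arid4b-delta endoderm, and at 3, 3 and 7 in WT endoderm. In mesoderm it lay at 3, 3 and 10 in arid4b-delta and at 1, 2 and 8 in WT. The 3 classes also differed in how many members carried any mark. Each of the 8 basement membrane genes had a promoter peak of at least 1 mark in at least 1 library, against 6 of 11 fibrillar genes and 13 of 25 others. No promoter mark in any library was seen at 17 members, and 37.5% of all genes were likewise unmarked. Among fibrillar genes these were Col3a1, the type III chain of skin and vessel walls, Col5a2 and Col5a3, chains of the type V collagen that limits fibril width, Col11a2, a type XI chain of cartilage, and Col24a1. The other class contributed Col6a1, Col6a3, Col6a4 and Col6a5 of the beaded filaments, Col7a1 of the skin's anchoring fibrils, Col9a1, Col9a3, Col20a1 and Col22a1 of the fibril-associated types, Col10a1 of hypertrophic cartilage, Col17a1 of hemidesmosomes, and Col28a1. Col3a1 stood in a stretch with little H3K4me3: the nearest peak lay 423085 bp away in arid4b-delta endoderm and 483634 bp away in WT endoderm, and 351345 bp and 483342 bp away in arid4b-delta and WT mesoderm. H3K4me3 in all 4 libraries was found at 9 members, while 52.0% of all genes had it. These were the fibrillar genes Col1a2, Col2a1, Col5a1, Col11a1 and Col27a1, the basement membrane genes Col4a1, Col4a2 and Col18a1, and Col23a1, a transmembrane collagen. H3K27me3 in all 4 libraries was found at 9 members, beside 7.57% of all genes: Col2a1, Col27a1, Col15a1, Col8a2, Col12a1, Col13a1, Col14a1, Col19a1 and Col26a1. Col2a1 and Col27a1 were the only members on both lists of 9.

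**Figure D2:**
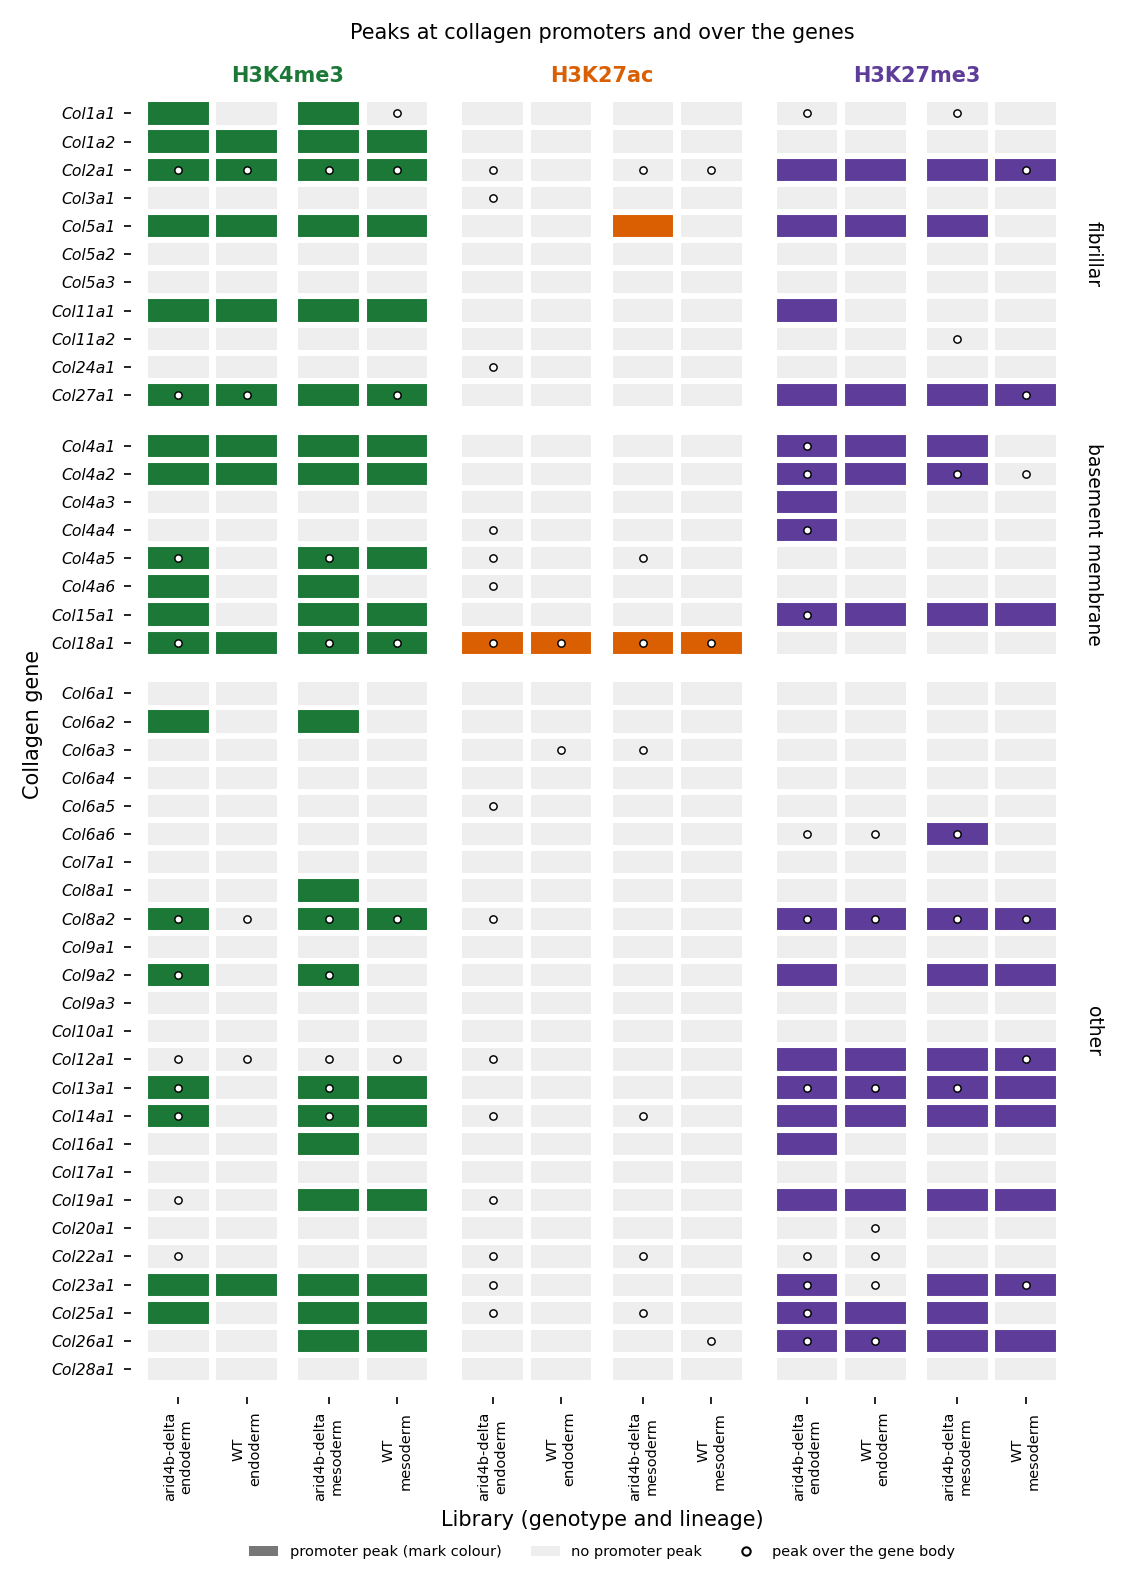
Promoter peaks (filled cells) and gene-body peaks (circles) of the 44 collagen genes, rows by class, in the 12 libraries, columns by mark with arid4b-delta left of WT in each lineage. No cell of the H3K4me3 and H3K27me3 blocks is filled in WT and empty in the arid4b-delta library beside it. H3K27ac fills 1 row in all 4 libraries, Col18a1, and 1 further cell, Col5a1 in arid4b-delta mesoderm.

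In endoderm 10 collagen promoters (22.7%) had H3K4me3 in arid4b-delta and none in WT, where 5.21% of all genes did, and 0 had it in WT alone, where 0.0823% of all genes did. They were 1 fibrillar gene (Col1a1), 3 basement membrane genes (Col4a5, Col4a6 and Col15a1) and 6 others (Col6a2, Col8a2, Col9a2, Col13a1, Col14a1 and Col25a1). In mesoderm 6 promoters (13.6%) had it in arid4b-delta alone, beside 3.62% of all genes, and 0 in WT alone, beside 0.11%. These were Col1a1, Col4a6, Col6a2, Col9a2, Col8a1 and Col16a1. Col1a1, Col4a6, Col6a2 and Col9a2 were on both lists, so 4 of 44 collagen promoters had H3K4me3 in arid4b-delta alone in both lineages, as did 2.03% of all genes. Many collagen promoters lacked H3K4me3 in WT, which leaves more room for such calls. Counted over promoters without H3K4me3 in WT endoderm, 10 of 35 collagen promoters (28.6%) had it in arid4b-delta endoderm, and 11.0% of all such genes did. The same count in mesoderm gave 6 of 27 (22.2%) and 8.08%. With the arid4b-delta list cut to equal length, the endoderm counts were 8 in arid4b-delta alone and 0 in WT alone (4.48% and 0.183% of all genes). In mesoderm they came to 3, Col1a1, Col4a6 and Col16a1, against 1, Col1a2 (2.71% and 0.388% of all genes). With only the 50% of peaks of highest fold kept in each list, the endoderm count in arid4b-delta alone was 3, Col27a1, Col4a1 and Col4a2, none of which was among the 10. The peaks behind the 10 calls ranked between the top 59.4% (Col8a2) and the top 99.2% (Col15a1) of the arid4b-delta list.

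Among the fibrillar genes Col1a1 and Col1a2, which encode the chains of type I collagen, the main collagen of bone, skin and tendon, were marked unequally. Col1a1 (chr11:94936224-94953042) had an H3K4me3 peak of 5.01-fold in arid4b-delta endoderm and 13.7-fold in arid4b-delta mesoderm, and no promoter peak in WT of either lineage. The nearest WT peak lay 36632 bp from a gene end in endoderm and 1266 bp in mesoderm, a 5.43-fold peak of 329 bp that falls just outside the window and overlaps the 997-bp arid4b-delta peak. In mesoderm both genotypes thus had H3K4me3 at Col1a1, and the difference in calls turns on the edge of the window. Col1a2 (chr6:4505618-4541543) had H3K4me3 of 8.31-fold in arid4b-delta and 6.56-fold in WT endoderm and of 4.74-fold in arid4b-delta and 5.37-fold in WT mesoderm, and neither H3K27ac nor H3K27me3 anywhere. Col2a1, the cartilage type II collagen, was bivalent in all 4 kinds of cell. Its H3K27me3 peak covered 6262 bp in arid4b-delta endoderm and 5087 bp in WT endoderm, and 5977 bp in arid4b-delta mesoderm and 696 bp in WT mesoderm. In the WT mesoderm library the region was instead broken into that peak and 2 gene-body peaks of 646 and 514 bp.

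Col5a1, whose type V chain takes part in starting fibrils, was the only fibrillar gene with promoter H3K27ac, and only in 1 library. Its H3K4me3 peak was 22.4-fold in arid4b-delta and 13.4-fold in WT endoderm, and 22.8-fold in arid4b-delta and 9.07-fold in WT mesoderm. H3K27ac appeared as a single 183-bp peak of 6.83-fold in arid4b-delta mesoderm, with no peak within the window in WT mesoderm or in either endoderm library. Such a call, H3K27ac in arid4b-delta mesoderm and not in WT mesoderm, was made at 5.33% of all genes. The Col5a1 call was lost once the arid4b-delta list was cut to equal length, which left 2.53% of all genes. H3K27ac in WT mesoderm alone was seen at 0 collagen promoters (3.63% of all genes), and in endoderm 0 promoters had it in arid4b-delta alone and 0 in WT alone (4.18% and 4.55%). H3K27me3 at Col5a1 was called in arid4b-delta endoderm (164 bp), WT endoderm (183 bp) and arid4b-delta mesoderm (546 bp), and not in WT mesoderm, where the nearest peak was 319581 bp away. Col11a1, a type XI chain of cartilage fibrils, had H3K4me3 in all 4 libraries and H3K27me3 in arid4b-delta endoderm alone, as a 146-bp peak of 1.78-fold. That peak has a −log10 q of 0.799, so it is a weak one. Col27a1, named after its values were seen, was bivalent in all 4 kinds of cell, with H3K27me3 over 5910 bp in arid4b-delta and 4452 bp in WT endoderm and over 6483 bp in arid4b-delta and 1927 bp in WT mesoderm.

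Every basement membrane gene was marked somewhere, and the type IV genes lie in head-to-head pairs. Col4a1 and Col4a2 encode the chains of the type IV network present in nearly all basement membranes. Their annotated 5′ ends overlap by 85 bp and their RefSeq starts lie 21 bp apart on chromosome 8, so the same peaks mark both and the pair counts as 1 region. The stretch below (chr8:11312801-11312830, plus strand, GRCm38.p6, from RefSeq) shows this shared start in full, with the bases from the Col4a2 start to the Col4a1 start in capitals.
Col4a2/Col4a1: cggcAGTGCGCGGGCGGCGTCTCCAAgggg
H3K4me3 over this start was 17.1-fold in arid4b-delta endoderm and 6.97-fold in WT endoderm, and 19.9-fold in arid4b-delta mesoderm and 13.1-fold in WT mesoderm. H3K27me3 covered it for 5481 bp in arid4b-delta endoderm and 3455 bp in WT endoderm. In mesoderm it covered 5458 bp in arid4b-delta, at 1.72-fold, whereas the only WT mesoderm peak nearby was 405 bp long and lay inside Col4a2, 1312 bp from the end of Col4a1 and 1396 bp from that of Col4a2. The shared promoter was therefore bivalent in arid4b-delta endoderm, WT endoderm and arid4b-delta mesoderm, and carried H3K4me3 alone in WT mesoderm. These H3K27me3 calls changed with the cut to equal length, which removes arid4b-delta peaks only. With lists of equal length the arid4b-delta mesoderm call was lost, and in endoderm the pair had H3K27me3 in WT alone. None of the 4 libraries had H3K27ac there.

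The pair on chromosome X, Col4a6 and Col4a5, has a gap of 1274 bp between its gene ends and was marked end by end. Col4a6, a chain of specialised basement membranes such as those of smooth muscle, had H3K4me3 of 6.05-fold in arid4b-delta endoderm and 7.85-fold in arid4b-delta mesoderm and no promoter peak in WT. Col4a5, a chain of the kidney glomerular membrane, had it at 6.91-fold in arid4b-delta endoderm, with no WT endoderm peak closer than 249734 bp, and at 9.89-fold in arid4b-delta mesoderm and 6.22-fold in WT mesoderm. The 1 WT mesoderm peak at Col4a5 lay 1503 bp from the end of Col4a6. H3K27me3 and H3K27ac were absent from both promoters in every library. Col4a3 and Col4a4, the partners of Col4a5 in the glomerular network, overlap by 114 bp on chromosome 1 and shared a single 635-bp H3K27me3 peak of 2.03-fold in arid4b-delta endoderm. No other promoter mark was called there, and the nearest WT endoderm H3K27me3 peak was 163157 bp from the end of Col4a4.

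**Figure D3:**
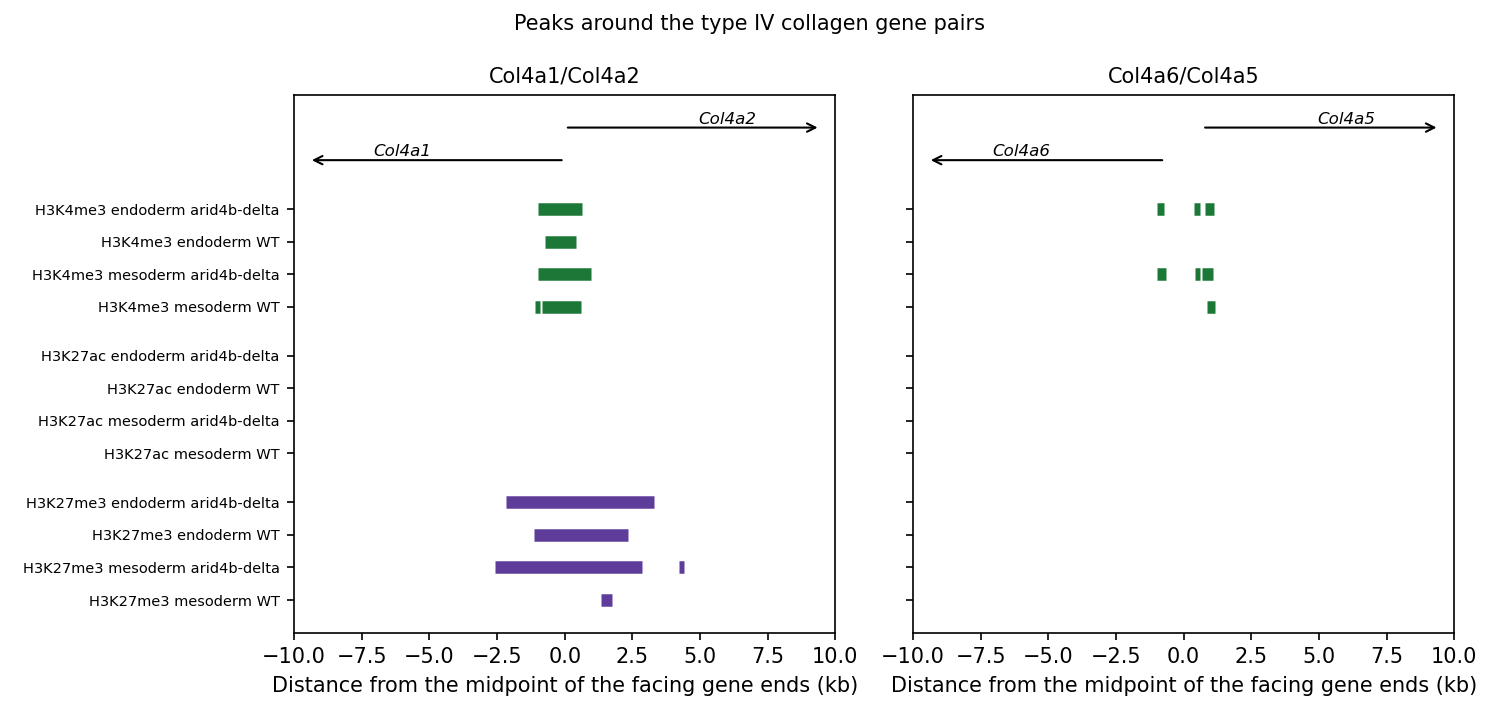
Peaks within 10 kb of the midpoint between the facing ends of Col4a1 and Col4a2 and of Col4a6 and Col4a5, in each library (rows, arid4b-delta above WT). The horizontal axis is distance in kb, bars are peaks to scale, and arrows show the direction of each gene. H3K4me3 lies across the shared Col4a1/Col4a2 start in every library and H3K27me3 in all but WT mesoderm, where its 1 peak lies inside Col4a2, while at Col4a6/Col4a5 only short H3K4me3 peaks appear, 3 in each arid4b-delta library, 0 in WT endoderm and 1 in WT mesoderm.

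Col18a1, the source of the angiogenesis inhibitor endostatin, was the one collagen gene with promoter H3K27ac in every library. Its H3K27ac peak was 9.83-fold in arid4b-delta and 5.7-fold in WT endoderm, and 10.1-fold in arid4b-delta and 6.87-fold in WT mesoderm. H3K4me3 there was 25.4-fold in arid4b-delta and 9.07-fold in WT endoderm, and 21.7-fold in arid4b-delta and 18.2-fold in WT mesoderm, and H3K27me3 was called in no library. Within its own list the H3K4me3 peak ranked in the top 8.18% in arid4b-delta endoderm and the top 44.7% in WT endoderm, and in the top 18.8% and 6.75% in arid4b-delta and WT mesoderm. The rank was thus higher in arid4b-delta in one lineage and higher in WT in the other. Col15a1, the related type XV chain, was bivalent in arid4b-delta endoderm and in both mesoderm libraries, and had H3K27me3 alone in WT endoderm. Its H3K4me3 peak in arid4b-delta endoderm was weak, at 3.11-fold, in the lowest part of its list (top 99.2%).

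Type VI collagen, which forms beaded filaments around cells, is built from several chains, and their genes did not share their marks. Col6a2 had short H3K4me3 peaks in arid4b-delta, 188 bp at 5.75-fold in endoderm and 146 bp at 4.65-fold in mesoderm, and the nearest WT peak lay 91420 and 91372 bp away. Col6a1, its neighbour on chromosome 10, and Col6a3 had no promoter peak of any mark. Col6a6 had an H3K27me3 peak of 476 bp at 2.51-fold in arid4b-delta mesoderm alone.

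In the other class, bivalent promoters were found among the fibril-associated, transmembrane and network-forming genes and at Col26a1. Col13a1, a transmembrane collagen of the neuromuscular junction, had the longest H3K27me3 peak of all members in 3 libraries, 12590 bp in arid4b-delta endoderm, 6018 bp in WT endoderm and 11596 bp in arid4b-delta mesoderm. In WT mesoderm its peak was 1925 bp, and those of Col26a1 (2140 bp) and Col27a1 (1927 bp) were longer. Its H3K4me3 was called in arid4b-delta endoderm (7.31-fold), arid4b-delta mesoderm (5.7-fold) and WT mesoderm (7.65-fold). Col25a1, a transmembrane collagen needed for the motor innervation of muscle, had H3K4me3 in the same 3 libraries at 8.48-fold, 5.21-fold and 7.35-fold. H3K27me3 at Col25a1 was called in arid4b-delta endoderm, WT endoderm and arid4b-delta mesoderm and not in WT mesoderm. Col23a1, also transmembrane, had H3K4me3 in all 4 libraries, and H3K27me3 in arid4b-delta endoderm (4.69-fold), arid4b-delta mesoderm (4.47-fold) and WT mesoderm (1.26-fold). In WT endoderm the nearest H3K27me3 peak lay 2654 bp inside Col23a1.

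Col14a1, a fibril-associated collagen of tendon and skin, had H3K4me3 of 7.57-fold in arid4b-delta endoderm and of 11.4-fold in arid4b-delta and 7.07-fold in WT mesoderm, over H3K27me3 in all 4 kinds of cell. Col8a2, a network-forming chain of the corneal Descemet membrane, followed the same calls, with H3K4me3 of 8.72-fold in arid4b-delta endoderm and of 9.02-fold in arid4b-delta and 4.24-fold in WT mesoderm. Col9a2, a chain of cartilage type IX collagen, had faint H3K4me3 in arid4b-delta only, at 4.21-fold in endoderm and 4.45-fold in mesoderm. Its H3K27me3 was called in arid4b-delta endoderm (1327 bp), arid4b-delta mesoderm (1245 bp) and WT mesoderm (194 bp, at 959 bp from the gene end). Col8a1, the partner chain of Col8a2, had a 3.34-fold H3K4me3 peak in arid4b-delta mesoderm alone, among the weakest of its list (top 98.1%). Col16a1, another fibril-associated chain, had H3K4me3 of 6.69-fold in arid4b-delta mesoderm and H3K27me3 of 2.69-fold in arid4b-delta endoderm. The H3K27me3 peak lay 770 bp from the gene end. An end of the noncoding RNA gene Gm12963 lies within 1000 bp of the Col16a1 5′ end, and which gene the peaks belong to was not tested.

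H3K27me3 was called in arid4b-delta alone at 6 collagen promoters (13.6%) in endoderm, Col11a1, Col4a3, Col4a4, Col9a2, Col16a1 and Col23a1, while 4.51% of all genes had such a call. In mesoderm 5 (11.4%) had it, Col5a1, Col4a1, Col4a2, Col25a1 and Col6a6, while 7.27% of all genes did. Col4a1 and Col4a2 share 1 peak, as do Col4a3 and Col4a4. H3K27me3 in WT alone was seen at 0 collagen promoters in either lineage, with 1.84% of all genes in endoderm and 0.612% in mesoderm. With lists of equal length there were 5 promoters in arid4b-delta alone and 4 in WT alone in endoderm (2.97% and 5.23% of all genes). The cut can move these counts only in that direction. The 5 include the Col4a3 and Col4a4 pair, and the 4 include the Col4a1 and Col4a2 pair. In mesoderm the same cut gave 3 in arid4b-delta alone and 3 in WT alone (4.71% and 2.91% of all genes).

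Separate libraries do not show whether both marks lie on the same copies of a promoter, and bivalent here means that both were called. Bivalent collagen promoters numbered 13 in arid4b-delta and 5 in WT endoderm, where 13.4% and 9.52% of all genes were bivalent. In mesoderm they numbered 14 in arid4b-delta and 9 in WT, with 13.4% and 7.23% of all genes. Of the 10 promoters with endoderm H3K4me3 in arid4b-delta alone, 5 had H3K27me3 in WT endoderm (Col8a2, Col13a1, Col14a1, Col15a1 and Col25a1). Read the other way, 5 of 8 collagen promoters with H3K27me3 and no H3K4me3 in WT endoderm (62.5%) had H3K4me3 in arid4b-delta endoderm, beside 58.2% of all such genes. Of collagen promoters with neither methyl mark in WT endoderm, 5 of 27 (18.5%) did, beside 6.54% of all such genes. The collagen share was thus close to that of all genes where WT had H3K27me3, and larger where it had neither mark.

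Between lineages, H3K4me3 was on more collagen promoters in mesoderm. In WT 8 members had it in mesoderm and not in endoderm, where 3.08% of all genes did, and 0 had it in endoderm alone, where 0.48% of all genes did. They were Col4a5, Col15a1, Col8a2, Col13a1, Col14a1, Col25a1, Col19a1 and Col26a1. In arid4b-delta 4 members had it in mesoderm alone (1.33% of all genes), Col8a1, Col16a1, Col19a1 and Col26a1, and 0 in endoderm alone (0.338%). The Col19a1 call turns on the edge of the window. Its nearest arid4b-delta peak lay 1000 bp from the gene end in mesoderm and 1104 bp in endoderm. All 10 collagen promoters that had H3K4me3 in arid4b-delta but not WT endoderm also had it in arid4b-delta mesoderm, and 6 of them had it in WT mesoderm. The same shares of all genes were not computed. Because only 0.338% of all genes had H3K4me3 in arid4b-delta endoderm alone, the first count is not particular to collagens. H3K27me3 lay the other way, on more collagen promoters in endoderm in both genotypes, where its lists were also the longer ones. In arid4b-delta it lay at 1 member in mesoderm alone, Col6a6 (2.12% of all genes), and at 4 in endoderm alone, Col11a1, Col4a3, Col4a4 and Col16a1 (2.97%). In WT it lay at 2 in mesoderm alone, Col9a2 and Col23a1 (0.923%), and at 4 in endoderm alone, Col5a1, Col4a1, Col4a2 and Col25a1 (5.75%). The Col9a2 peak lay 959 bp from the gene end, so that call too turns on the edge of the window. Whether the 2 genotypes differ in these lineage gaps was not tested.

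Peaks over the gene bodies were mostly short, and 27 of 44 members (61.4%) had at least 1 of any mark in any library, beside 38.2% of all genes. Collagen genes are long, with a median of 114.0 kb against 17.2 kb for all genes, and the part of length in these shares was not tested. H3K4me3 lay over the body in arid4b-delta alone at 7 members in endoderm (5.67% of all genes) and in WT alone at 0 (2.83%). In mesoderm the counts were 4 (6.27% of all genes) and 2 (2.5%). The 2 in WT alone are Col1a1 and Col27a1, and at neither was the stretch without H3K4me3 in arid4b-delta. At Col1a1 the WT peak is the one just outside the promoter window described above. At Col27a1 the stretch holds the only RefSeq start used here, which lies over 1000 bp inside the gene end. It is thus a start-site peak, and it lies under a 1532-bp arid4b-delta peak that reaches into the promoter window. H3K27ac lay over the body of 15 members in arid4b-delta endoderm (16.0% of all genes) and of 2 in WT endoderm (8.9%), from whole lists of 35884 and 14216 peaks. It did so at 14 members in arid4b-delta endoderm alone (8.99% of all genes) and at 1 in WT endoderm alone (1.89%). In mesoderm these counts were 5 (7.05%) and 1 (1.88%). With lists of equal length the endoderm H3K27ac counts were 6 in arid4b-delta alone and 1 in WT alone. The share of all genes was not computed for that setting, so these counts cannot be set beside it. H3K27me3 lay over the body in arid4b-delta alone at 6 members in endoderm (7.06%) and at 4 in mesoderm (5.47%), and in WT alone at 1 (3.11%) and 4 (2.49%). The 4 in WT mesoderm alone are Col2a1, Col12a1, Col27a1 and Col23a1. At Col2a1, Col12a1 and Col27a1 the WT body peaks overlapped a longer arid4b-delta mesoderm peak that reached into the promoter window. Those arid4b-delta peaks were 5977, 3973 and 6483 bp long, in that order, so these stretches were not without H3K27me3 in arid4b-delta.

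The strongest intragenic H3K27ac site of the basement membrane class lay in Col4a5, about 92.5 kb from its 5′ end. In arid4b-delta endoderm it was a peak of 1512 bp at 8.87-fold (chrX:141567161-141568672), and in arid4b-delta mesoderm 3 peaks of 445, 391 and 271 bp covered the same stretch at 8.09-fold, 7.35-fold and 4.55-fold. H3K4me3 peaks lay there too, 1 in arid4b-delta endoderm and 3 in arid4b-delta mesoderm, and no WT library had a gene-body peak of either mark in Col4a5. In Col14a1 both marks overlapped on chromosome 15 in arid4b-delta only, with H3K27ac of up to 10.2-fold in endoderm (chr15:55396481-55396836) and 6.35-fold in mesoderm. Col3a1 had a single H3K27ac peak of 163 bp at 6.77-fold, 18.3 kb from its 5′ end, in arid4b-delta endoderm. Col6a6 had H3K27me3 8.8 and 121.4 kb from its 5′ end in arid4b-delta endoderm, at 9.02-fold and 8.05-fold, and in WT endoderm at 1.72-fold and 1.62-fold. Col12a1, a fibril-associated collagen named here after its values were seen, had H3K4me3 in all 4 libraries, but 1615 to 2167 bp inside the gene end and so outside the promoter window.

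CpG content of the RefSeq start went with the marks, which were called around the gene end. At some members, among them Col20a1, Col6a5, Col27a1 and Col28a1, these 2 places lie over 1000 bp apart. Over the 300 bp from 250 before to 50 after the RefSeq start, the observed to expected CpG ratio had a median of 0.47 in 35 collagen genes (at the outermost start where RefSeq gives more than 1) and of 0.577 in all 17491 genes with an entry. Collagen promoters with H3K4me3 in all 4 libraries had a median ratio of 0.669 (8 genes), those with it in 1 to 3 libraries 0.561 (11 genes), and those with none 0.303 (16 genes). The same 3 groups of all genes had medians of 0.795, 0.583 and 0.188. The 15 members with H3K27me3 in at least 1 library had a median of 0.673. Exceptions ran both ways. Col4a6, at 0.172, had H3K4me3 in both arid4b-delta libraries, and Col5a3, at 0.665, had no mark. The ratio depends on the start chosen where there is more than 1. Col6a2 had 0.253 at its outer start and 0.557 at its inner one, and Col18a1 had 0.538 and 0.227. A GC box, GGGCGG on either strand, was present in 22 of the 35 collagen windows (62.9%) and 46.3% of all windows. CCAAT was present in 12 (34.3%) and 39.2%, and TATAAA in 5 (14.3%) and 13.3%. A match describes the letters of the window and not a bound factor.

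**Figure D4:**
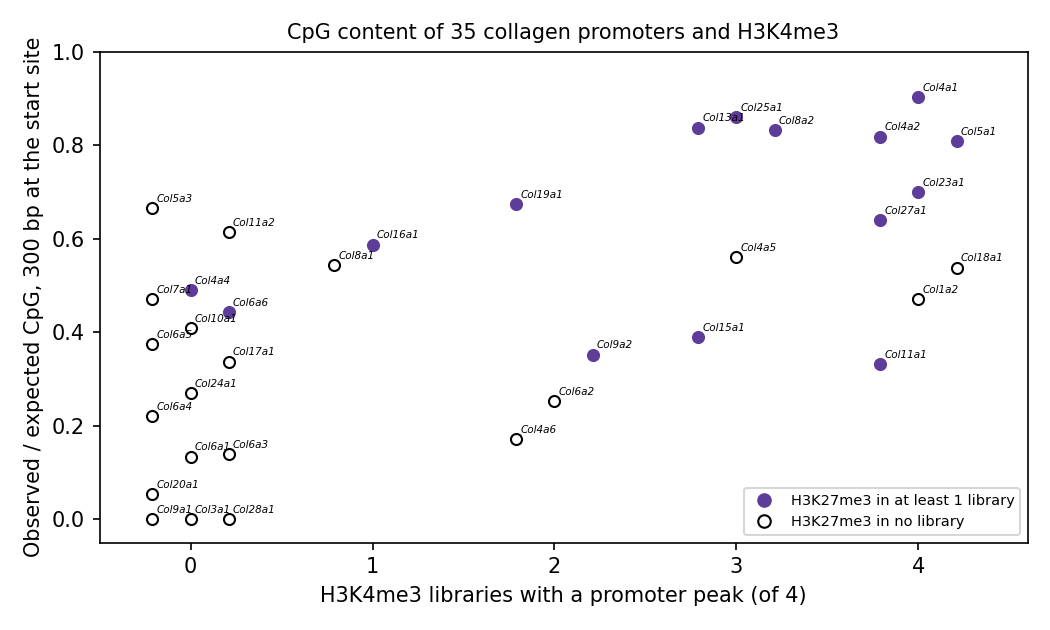
Observed to expected CpG ratio of the 300 bp at the RefSeq start (vertical axis) for 35 collagen genes. The horizontal axis is the number of H3K4me3 libraries, of 4, with a promoter peak, called around the gene end. Points are genes, spread sideways for legibility, and filled points have H3K27me3 in at least 1 library. Every gene from Col19a1, at 0.673, up to Col4a1, at 0.902, is a filled point, and Col9a1, Col3a1 and Col28a1 lie at 0.

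Genes that make, cross-link, bind and degrade collagen were counted in the same way, to be read against the shares of all genes given with the collagen promoters. Their counts were not recomputed with lists of equal length. Of 19 biosynthesis enzymes and chaperones, 17 had promoter H3K4me3 in arid4b-delta mesoderm and 17 in WT mesoderm, and H3K27ac lay at 5 in arid4b-delta and 7 in WT mesoderm, beside 30.3% and 28.6% of all genes. In endoderm H3K27ac lay at the same 2 in both genotypes. Mesoderm H3K27ac lay at 1 of the 19 in arid4b-delta alone and at 3 in WT alone. The 1 was P3h3, a prolyl 3-hydroxylase family member, at 7.51-fold. Among the 3 was P4ha1, a catalytic chain of prolyl 4-hydroxylase, at 7.49-fold. P4ha3 and P3h2, of the same enzyme families, had mesoderm H3K27me3 in arid4b-delta alone, while in endoderm P4ha3 had it in WT alone and P3h2 in both. Among 13 secretion and processing genes, H3K27ac lay at 2 in arid4b-delta mesoderm and 0 in WT mesoderm. The 2 were Sec23a, a coat protein of secretory vesicles, at 8.59-fold, and Pcolce2, an enhancer of procollagen cleavage, at 8.31-fold. The procollagen proteases Bmp1 and Adamts3 had mesoderm H3K27me3 in arid4b-delta alone, at 1.91-fold and 2.95-fold, and endoderm H3K27me3 in both genotypes.

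Of 7 cross-linking genes, H3K4me3 lay at 7 in arid4b-delta and 2 in WT mesoderm, beside 58.6% and 55.1% of all genes, and at 6 in arid4b-delta and 3 in WT endoderm, beside 57.7% and 52.5%. In arid4b-delta alone it lay at 5 in mesoderm and 4 in endoderm, beside 3.62% and 5.21% of all genes. Lox, Loxl1, Loxl4 and Pxdn, named after their values were seen, had it in arid4b-delta alone in both lineages. The first 3 are lysyl oxidases, which join fibrils, and Pxdn forms the sulfilimine bonds of type IV collagen. Pxdn was the strongest of them, at 25.1-fold in arid4b-delta endoderm and 19.8-fold in arid4b-delta mesoderm. Tgm2, a transglutaminase, had H3K4me3 in arid4b-delta alone in mesoderm, at 4.89-fold, and in WT alone in endoderm, at 3.58-fold. Loxl2 had mesoderm H3K27me3 in arid4b-delta alone, at 2.62-fold, and mesoderm H3K27ac in WT alone, at 6.54-fold.

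Of 10 collagen receptors, mesoderm H3K27me3 lay at 3 in arid4b-delta and 0 in WT, and endoderm H3K27me3 at 4 in arid4b-delta and 2 in WT. The 3 were the integrin chains Itga2 and Itga11 and the endocytic receptor Mrc2, while the receptor kinase Ddr1 had mesoderm H3K27ac in WT alone, at 5.64-fold. Of 16 basement membrane partners, mesoderm H3K27ac lay at 5 in arid4b-delta and the same 5 in WT, and endoderm H3K27ac at 5 in arid4b-delta and 7 in WT, with Lama4 and Sparc in WT alone. The laminin chains Lama1, Lama3 and Lamc3 had mesoderm H3K27me3 in arid4b-delta alone, and endoderm H3K27me3 in both genotypes. Among 11 matrix metalloproteinases and their inhibitors, mesoderm H3K27me3 lay at 7 in arid4b-delta and 1 in WT, with Mmp2, Mmp14, Mmp15 and Mmp16 among those in arid4b-delta alone, at 1.52-fold to 3.44-fold. As given for the collagens, 7.27% of all genes had mesoderm H3K27me3 in arid4b-delta alone. In endoderm the counts ran the other way, with 3 in arid4b-delta and 4 in WT. There Mmp14 and Timp2 had H3K27me3 in arid4b-delta alone, and Mmp9, Mmp16 and Timp3 in WT alone. Of 8 fibroblast marker genes, 0 had promoter H3K27ac in any library. Of 8 extraembryonic endoderm markers, which include the laminin chains that accompany type IV collagen there, H3K27ac lay at 1 in arid4b-delta and 2 in WT endoderm, and at 1 in arid4b-delta and 2 in WT mesoderm. Their part in the collagen calls was not tested.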

How the data were processed

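ChIP-seq peaks of 12 libraries were used, 1 for each mark, lineage and genotype. Bowtie2, Picard and MACS2 and build mm10 are named in the authors' work per the submitters' processing notes, with versions and settings not given in the sources used here. The deposited H3K4me3 and H3K27ac lists hold narrow peaks, the H3K27me3 lists broad ones, and each comes from 1 library. Each deposited list gives a score set by the authors' peak caller, which was not used. The deposited lists also give the authors' fold enrichment, a ratio over control or local background, with −log10 of its p and q value for every peak. The summit position in narrow lists, another unit set by the authors, was not used. The lowest −log10 q was 2.0 in narrow lists and 0.307 in broad lists, so broad lists hold weak peaks. A peak list gives no read depth, so depth is unknown and no interval was computed.

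Peaks were joined to gene ends of RefSeq (GRCm38.p6), with an overlap of at least 1 bp, in Python 3.11.15 with pandas 2.3.3 and numpy 2.4.6. Strand and sequence came from RefSeq's promoter table for 35 members. The overlap code was tested on simulated peaks. Counts of members were set beside the same share of all 21883 genes, with no test. Alternatives were windows of 500 and 2500 bp, lists of equal length, the upper 50% of each list, peaks of at least 500 bp, either gene end, any RefSeq start and the end with more H3K4me3. The members and gene lists were chosen with earlier results of these data known. Named with values were members whose promoter call differed between genotypes, 14 members whatever their values (chains of types I, II, III, V and VI and the main basement membrane chains), and up to 4 genes of each pathway list whose mesoderm H3K27ac or H3K27me3 call differed. Genes outside this rule are said to be named after their values were seen.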

Additional observations from a re-analysis of the deposited data

Results flagged for a closer look

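H3K27ac over the body of Col6a3, a chain of the type VI beaded filaments, went opposite ways in the 2 lineages. In mesoderm a peak of 400 bp (chr1:90775418-90775817) was called at 5.33-fold in arid4b-delta and none in WT, whereas in endoderm none was called in arid4b-delta and a peak of 160 bp at the same site (chr1:90775544-90775703) was called at 6.87-fold in WT. The site lies 68.4 kb from the 5′ end of the gene. With lists of equal length the mesoderm call in arid4b-delta was lost. The endoderm call in WT could not be lost there, because that list was not cut. In the upper 50% of each list both were lost. The difference between lineages was not tested, since each group is 1 library.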

How the results depend on the processing

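The 24 counts of collagen genes were recomputed under 132 alternatives, of which 96 stayed within 1.5 times the main count and 36 moved. A count of 0 that stayed 0 is among the 96, and a count can stay while its members change. The 6 with mesoderm promoter H3K4me3 in arid4b-delta alone became 4 in the upper 50% of each list, with 1 member shared, and count as unmoved. The settings based on any RefSeq start and on the end with more H3K4me3 were chosen after seeing the data and moved none. With any RefSeq start, however, the 9 members without an entry could not be called. The endoderm H3K4me3 count in arid4b-delta alone was then 9, of which 8 were among the 10. At promoters, counts are given for arid4b-delta alone first. The 10 with endoderm H3K4me3 became 3 in the upper 50% of each list, and these 3 shared none with the 10. The 6 with mesoderm H3K4me3 became 3 with lists of equal length, with 1 in WT alone. The 0 with endoderm H3K27ac became 1 (Col18a1) with a 500-bp window, in the upper 50% and with peaks of at least 500 bp. The 1 with mesoderm H3K27ac became 2 with a 2500-bp window, and 0 with lists of equal length and with peaks of at least 500 bp. The 6 with endoderm H3K27me3 became 3 with a 500-bp window, and the 0 in WT alone became 4 with equal lengths. The 5 with mesoderm H3K27me3 became 8 with a 500-bp window and 3 with equal lengths, and the 0 in WT alone became 3 with equal lengths and 1 in the upper 50%.

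Over gene bodies, the 7 with endoderm H3K4me3 in arid4b-delta alone became 4 with equal lengths and 3 both in the upper 50% and with long peaks. The 2 with mesoderm H3K4me3 in WT alone became 1 under the last 2 settings. The 14 with endoderm H3K27ac in arid4b-delta alone became 6, 7 and 1 under these 3 settings, and the 1 in WT alone became 0 under the last 2. The 5 with mesoderm H3K27ac in arid4b-delta alone became 2, 2 and 0, and the 1 in WT alone became 2, 0 and 0. The 6 with endoderm H3K27me3 in arid4b-delta alone became 2 with equal lengths and 3 in the upper 50%, where the 1 in WT alone became 0. The 4 with mesoderm H3K27me3 in arid4b-delta alone became 2 in the upper 50% and with long peaks. No share of all genes was computed for these recomputed body counts, and the cause of each move was not tested. No paired analysis was possible because each group holds 1 library and the counts come from no test. The lists give no depth, and genes with neighbouring or overlapping ends share peaks.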

Other observations

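Inside Col8a2, a network-forming collagen, a second site carried H3K4me3 and H3K27me3 in all 4 kinds of cell, about 14.4 to 14.6 kb from the 5′ end. It was named after its values were seen. Its H3K4me3 peak was 16.9-fold in arid4b-delta and 8.21-fold in WT endoderm, and 17.4-fold in arid4b-delta and 7.3-fold in WT mesoderm. In each library but WT endoderm, where Col8a2 had no promoter H3K4me3, Col8a2 thus had H3K4me3 at both places. H3K27me3 at the inner site covered 3856 bp in arid4b-delta and 1211 bp in WT endoderm, and 2081 bp in arid4b-delta and 1249 bp in WT mesoderm. Gene-body H3K27ac numbered 26 peaks over 15 members in arid4b-delta endoderm and 2 peaks over 2 members in WT endoderm. The member peaks had a median length of 209.5 bp in arid4b-delta and 163.5 bp in WT. Of the 15 members, 6 also had one in arid4b-delta mesoderm, Col2a1, Col4a5, Col18a1, Col14a1, Col22a1 and Col25a1.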
